A study of Homo sapiens with 2 samples.

Results

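The *MITF* gene carried 42 of the 60126 CHD4 peaks called in 501Mel cells, an established human melanoma cell line, and these peaks covered 27.6% of the gene. They were taken as every region of the deposited list that overlapped the *MITF* gene record (ENSG00000187098, chromosome 3 from 69788607 to 70017487 on the plus strand of hg19, 228881 bp) or the 2000 bp before its start, without regard to strength. All 42 touched the gene itself, and 40 lay wholly inside it. Chromatin from 501Mel cells grown in RPMI medium with foetal calf serum gave 1 library after CHD4 immunoprecipitation and 1 without it (input), both fixed with 0.4% paraformaldehyde. The labels give no treatment, silencing or genetic change for either library. There is no replicate, so no spread and no test between conditions can be given, and every share below is a description of 1 peak list. Each peak carries a fold enrichment of the CHD4 ChIP signal over the background of the peak caller and a −log10 q. For broad peaks both values are averages over the whole region and not values at a summit. Stronger and weaker peaks below are ranked on these averages, whatever their length. The list holds no read counts, so the depth behind each value cannot be read from it.

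CHD4 is the ATPase of the NuRD complex, which moves nucleosomes and is joined to histone deacetylases. MITF is a basic helix-loop-helix leucine zipper transcription factor that binds E-boxes and controls pigment, survival and proliferation genes of the melanocyte lineage. Its gene is transcribed from a series of alternative promoters, each of which joins its own first exon to a shared body. The most upstream one makes the A isoform in many tissues, and the most downstream one makes the M isoform in melanocytes and melanoma cells. The M promoter is known to be bound by SOX10, PAX3, CREB and LEF1.

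In GENCODE release 44, lifted to GRCh37 (hg19), *MITF* has 20 transcripts with 19 distinct transcription starts. Starts within 500 bp of each other were joined, which left 7 start groups, numbered here from 1 at the upstream end. Group 1 holds the canonical transcript MITF-203, of 10 exons and 526 residues. Group 7, which begins 197131 bp downstream, holds MITF-205, of 9 exons and 419 residues, the M isoform. The RefSeq promoter sequences of *MITF* (GRCh38.p14) were found unchanged in GRCh37. The 250 bases before 3 of the starts are shown, because those of groups 1 and 7 lay wholly under a CHD4 peak and those of group 4 lay under none. Capitals mark matches to the motif words searched, and every sequence is written on the plus strand of GRCh37.

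Group 1, chr3:69788365-69788614: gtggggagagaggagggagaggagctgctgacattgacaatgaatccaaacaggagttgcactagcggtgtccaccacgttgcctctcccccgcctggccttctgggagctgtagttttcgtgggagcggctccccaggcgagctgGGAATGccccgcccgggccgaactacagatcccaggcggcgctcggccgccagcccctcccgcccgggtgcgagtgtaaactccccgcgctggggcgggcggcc
Group 4, chr3:69812712-69812961: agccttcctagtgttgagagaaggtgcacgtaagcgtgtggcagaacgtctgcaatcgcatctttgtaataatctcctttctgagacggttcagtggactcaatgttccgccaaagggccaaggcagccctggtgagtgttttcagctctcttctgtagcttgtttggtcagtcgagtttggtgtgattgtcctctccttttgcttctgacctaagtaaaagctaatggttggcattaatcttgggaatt
Group 7, chr3:69985493-69985742: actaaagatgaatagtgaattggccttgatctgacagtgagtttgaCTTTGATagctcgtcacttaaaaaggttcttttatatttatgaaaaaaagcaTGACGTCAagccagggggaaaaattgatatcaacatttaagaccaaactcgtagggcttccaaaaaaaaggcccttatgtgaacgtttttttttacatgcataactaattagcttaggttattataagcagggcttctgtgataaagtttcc

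The A and M promoters differ in composition and in the words they hold. G and C make up 68% of the group 1 bases, 46.8% of the group 4 bases and 34.8% of the group 7 bases. The group 7 sequence holds the cyclic AMP response element TGACGTCA, the word bound by CREB, at bases −152 to −145 from the start, and the LEF/TCF word CTTTGAT at −204 to −198. Among 35116 RefSeq promoters, 1.65% hold the first word in the same 250 bases and 2.26% the other. The single match of group 1 is the TEAD word CATTCC on the minus strand, which 11.9% of promoters hold. A match is a word in the reference sequence and not a measured binding site.

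CHD4 peaks lay at 3 of the 7 start groups, those of the A promoter, of group 6 and of the M promoter. This share, 42.9% (Wilson 95% interval 15.8% to 74.95%), stands beside 18.5% over all 69515 start groups of protein-coding genes, a value inside the interval. All protein-coding genes have a median of 1 peak, whereas peaks cover 27.6% of *MITF*. No share for positions of *MITF* away from its starts is given, so 42.9% does not show a placement at promoters. The peak over group 1, from 69787695 to 69788911, was the strongest of the gene (fold enrichment 3.80, −log10 q 3.70). It reached 920 bp before the start of MITF-203, covered its whole first exon of 238 bp and ended 59 bp into intron 1. A lower fold enrichment was given for 90.5% (90.3% to 90.7%) of the 60123 peaks that lie on the nuclear chromosomes, so stronger peaks than this were common in the list.

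The peak over the M promoter, from 69983133 to 69986016, was 2884 bp long (fold enrichment 3.28, −log10 q 2.68). It was asymmetric around the start of MITF-205, with 2610 bp before it, all 164 bp of the first exon of the M isoform and 110 bp of the intron that follows. It was among the longer peaks of the list, 95.3% of which were shorter. The third, from 69913132 to 69915003, ended 372 bp before the first start of group 6, which holds transcript MITF-202 of 504 residues (fold enrichment 3.08, −log10 q 2.18). The 4 other groups had no peak within 1000 bp. Their nearest peaks lay 10029 bp away for group 2, 12830 bp for group 3, 11743 bp for group 4 and 3217 bp for group 5. None of the starts of these 4 groups is tagged as supported by CAGE in the annotation, whereas groups 1, 6 and 7 each hold at least 1 such transcript.

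**Figure D1:**
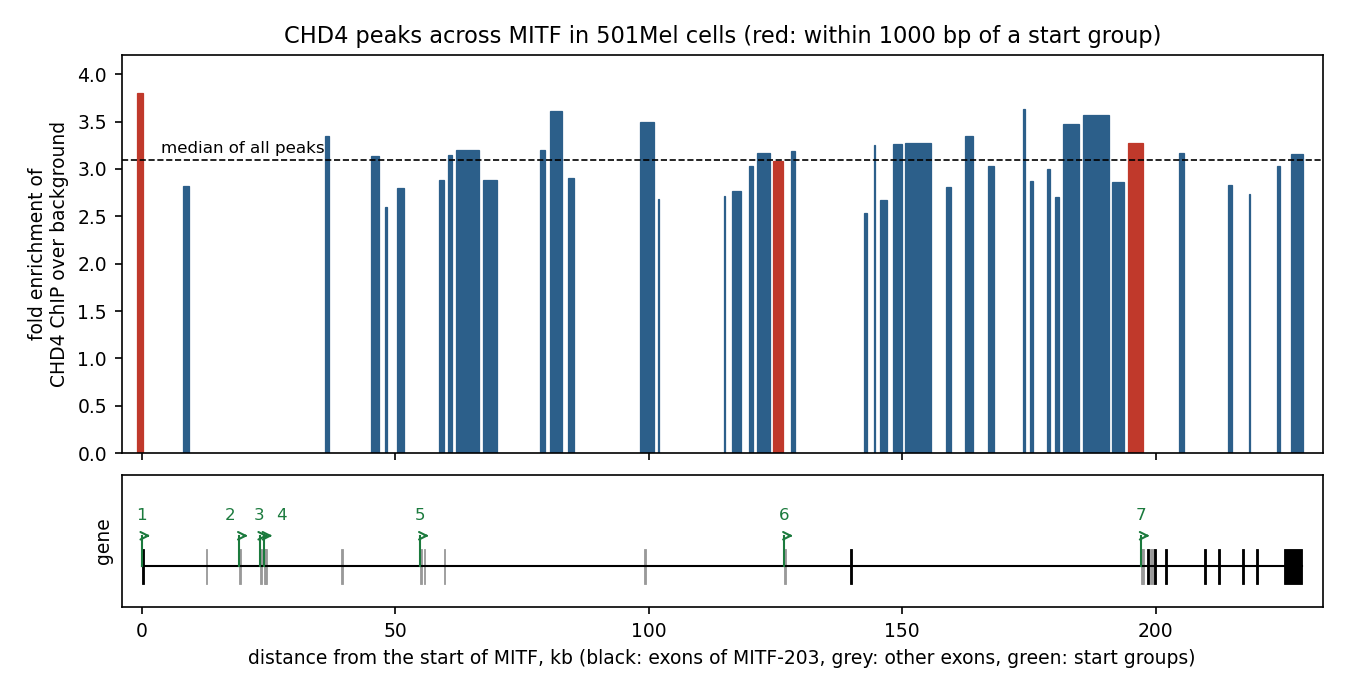
Each bar is 1 CHD4 peak drawn at its true width along *MITF* (horizontal axis, kb from the gene start), with its fold enrichment over background as its height; the dashed line is the median of all peaks, 3.09, and the lower track shows exons and the 7 start groups. The peaks crowd between groups 5 and 7 and thin out over the clustered exons at the right-hand end.

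Most of the *MITF* peaks lay in the long introns that separate the promoters. Intron 1 of MITF-203, 139432 bp long, held the centres of 20 peaks and was covered over 21.3% of its length. Intron 2, 58438 bp long, which ends at the exon shared by the A and M isoforms and holds the M promoter, held 16 and was covered over 49.4%. Together these introns held 85.7% of the peaks. They also make up 197870 of the 228881 bp of the gene, so this share is close to their share of its length. The 7 remaining introns, 26200 bp in all, held 4 peaks and were covered over 8.50%. Per 100 kb they held 15.3 peak centres, beside 18.2 in introns 1 and 2 together. Intron 1 alone held 14.3 per 100 kb and intron 2 held 27.4. For their length, the remaining introns thus differed from intron 1 in cover and not in fewer peaks. Introns 3, 4 and 6, of 1048, 2054 and 2643 bp, held none.

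**Figure D2:**
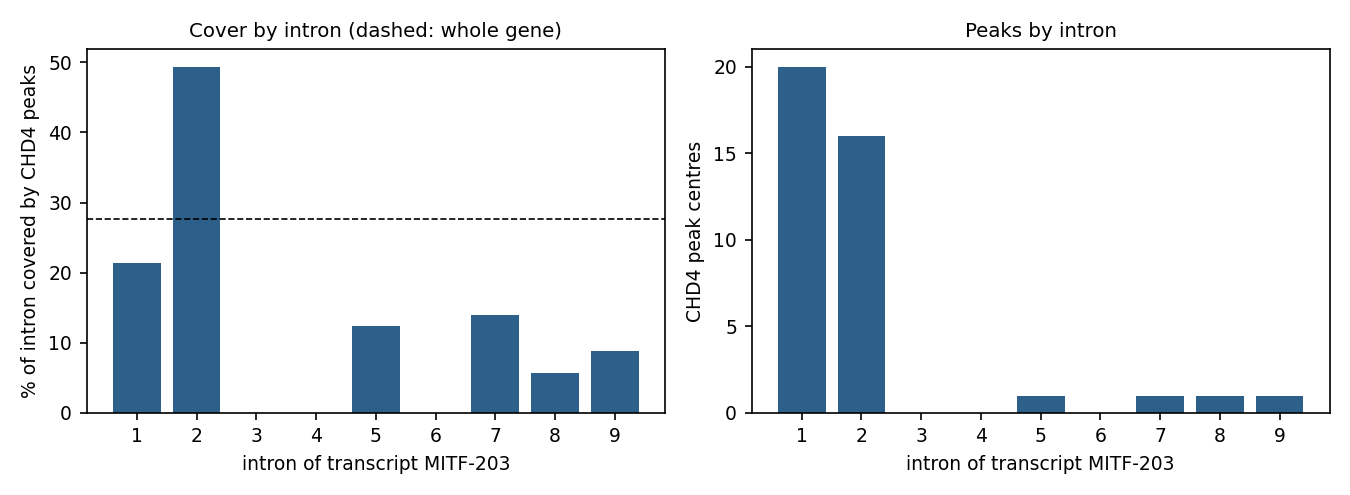
The left panel gives the percentage of each intron of transcript MITF-203 covered by CHD4 peaks, with the whole gene as a dashed line at 27.6%, and the right panel the number of peak centres. Intron 2 stood highest in cover at 49.4%, while introns 3 to 9, of 26200 bp together, held 4 peak centres in all.

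Between the promoters, cover was low in the upstream part of the gene and high from group 5 to the M promoter. The 19248 bp from group 1 to group 2 were covered over 6.81%, with 1 peak centre, and the 4020 bp and 832 bp that follow, up to group 4, held no peak. From group 4 to group 5 the value was 13.1%, with 4 peaks, and from group 5 to group 6 it was 33.1%, with 14. The 70363 bp from group 6 to group 7 were the most covered, over 41.8%, with 17 peaks. Downstream of the M promoter, the last 31750 bp were covered over 14.6%, with 5 peaks. The median fold enrichment of the intervals with a peak lay between 2.82 and 3.19.

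Few of the peaks touched an exon. Only 4 of the 42 peaks, 9.52% (3.77% to 22.1%), overlapped an exon of any *MITF* transcript, beside 27.2% of peaks over protein-coding genes and 16% of those over genes of similar length, and the interval holds the latter value. They were the peaks over the A and M promoters, a peak in intron 1 over a 39-bp exon outside the canonical transcript, and a peak at the end of the gene. The last, from 70015362 to 70017565, covered 2122 of the 3486 bp of the final exon of MITF-203 (fold enrichment 3.16, −log10 q 2.15). Of the 10 exons of MITF-203, 8 had no base under a peak, and 7 of the 9 exons of MITF-205 had none. Exons make up 3.24% of the gene and took 4.08% of the bases under its peaks. Because of the long last exon and the covered first exons, 35.3% of all exon bases still lay under a peak.

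The strength of the peaks was close to that of the list. The fold enrichment of the 42 peaks ranged from 2.53 to 3.80 with a median of 3.06, and that of all other peaks had a median of 3.09. The upper quartile was 3.26 for *MITF*, and 3.42 for all peaks. Their −log10 q ranged from 1.07 to 3.70, with a median of 1.93 beside 1.97 in the other peaks. A threshold of 2 on −log10 q was passed by 20 of the 42, or 47.6% (33.4% to 62.3%), and by 48.5% of the list. No member reached 5 on that scale, or a 4-fold enrichment.

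After the peak over the A promoter, the strongest peaks lay inside introns. A short peak of 367 bp in intron 2, from 69962526 to 69962892, had values of 3.63 for fold enrichment and 3.26 for −log10 q. A 2535-bp peak in intron 1, from 69869059 to 69871593, had values of 3.61 and 3.28. A 5083-bp peak in intron 2, from 69974254 to 69979336, had values of 3.57 and 3.46. Of the other *MITF* peaks, only these 3 reached 3 in −log10 q. The last is the longest but one of the gene, and 1 peak lies between it and the peak of the M promoter. The weakest, from 69931096 to 69931639, was enriched 2.53-fold, with a −log10 q of 1.07 beside 1.004 for the least significant peak of the list.

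The *MITF* peaks were long for this list. Their median length was 1140 bp, from 151 to 5107 bp, beside 613 bp for all other peaks. Of the 42, 34 were longer than the median of the list, or 81.0% (66.7% to 90.0%). A length of at least 1000 bp was reached by 23 of them, or 54.8% (39.9% to 68.8%), and by 29.1% of all peaks. A length of at least 2000 bp was reached by 11, or 26.2% (15.3% to 41.1%), and by 10.3% of all peaks. Peaks side by side in 1 gene are not independent, so these intervals cover counting error only. Longer *MITF* peaks tended to be stronger (Spearman's rho 0.44 over 42 peaks, and 0.24 over all peaks), which is a description of regions from the same library.

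**Figure D3:**
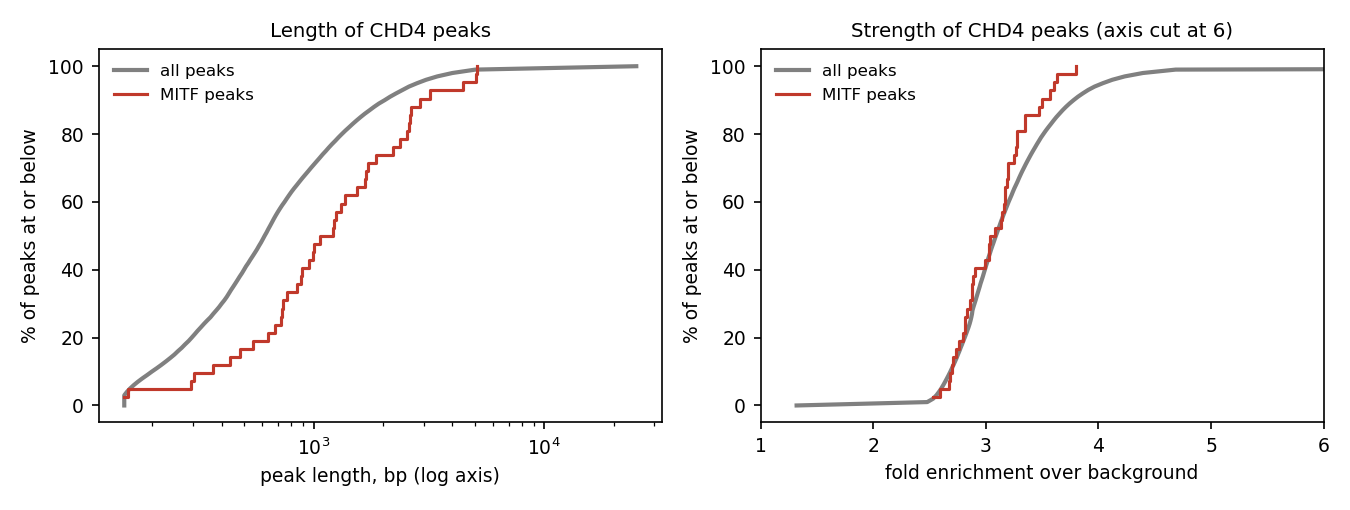
Cumulative curves give the percentage of peaks at or below each length (left, log axis) and each fold enrichment (right, axis cut at 6) for the 42 *MITF* peaks in red and all peaks in grey. The *MITF* curve is shifted to greater lengths, with a median of 1140 bp, and in fold enrichment it ends at 3.80, above 90.5% of all peaks.

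The peaks were closely spaced, with a median gap of 1510 bp between neighbours and 14 gaps of at most 1000 bp. Joining neighbours across such gaps left 28 regions. The longest stretch without a peak, 26878 bp, lay in the upstream part of intron 1 and contains the starts of groups 2, 3 and 4. Beyond the gene the nearest peaks were weak. The last before it, 3254 bp from the gene start, had a fold enrichment of 2.67, and the next after it, 784 bp from the gene end, one of 2.65.

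*MITF* held more peaks than nearly every gene of its size. A CHD4 peak was found for 58.5% of 20090 protein-coding genes, and for 80.6% of the 972 whose length was within 25% of that of *MITF*, so the presence of a peak is common at this size and the number is what differs. The genes of similar length had a median of 4 peaks, with quartiles of 1 and 9. The share with fewer peaks than *MITF* was 99.9% (99.42% to 99.98%), and only *JARID2*, which encodes a partner of Polycomb repressive complex 2, had more, with 50 peaks in 275974 bp. The cover of *MITF*, 27.6%, was above that of all 972 genes, whose median was 1.17% and whose highest was 22.8%, in *ARID5B*. Among 3658 other protein-coding genes of at least 100000 bp, a class set after the values were seen, 3 had a cover at least as high, led by *SEMA5A* with 35.04%.

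**Figure D4:**
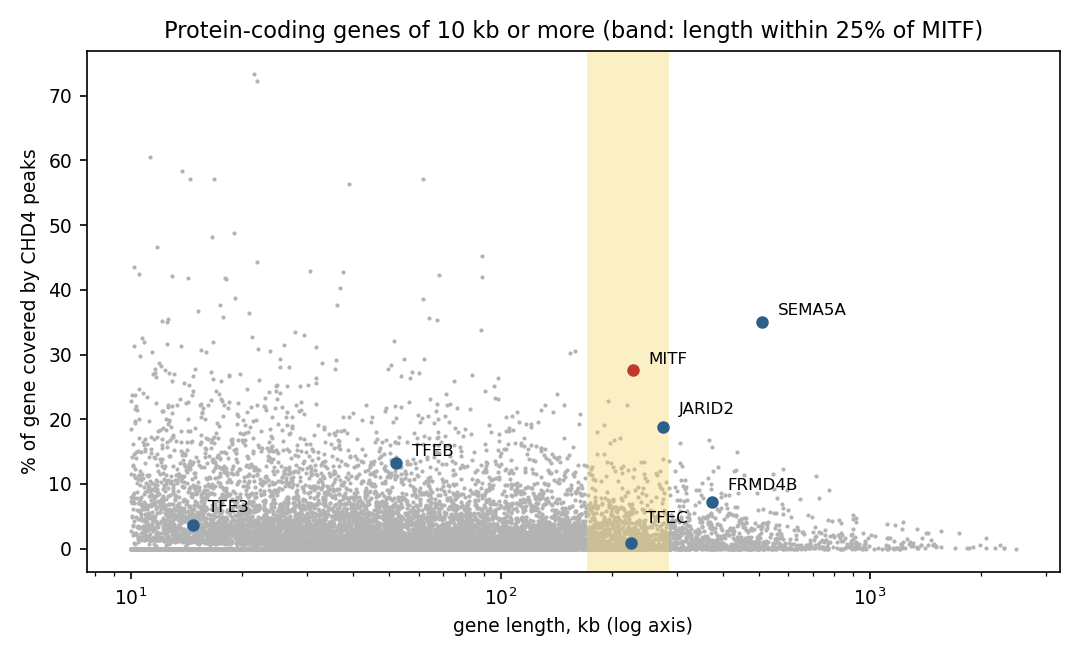
Each grey point is a protein-coding gene of 10 kb or more, placed by its length (log axis, kb) and the percentage of it covered by CHD4 peaks; the band marks lengths within 25% of that of *MITF*, and named genes are coloured. *MITF*, at 27.6%, lies above every other gene of the band, and its relative *TFEC* lies near the bottom at 0.909%.

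The windows beside *MITF* held fewer peaks, although within the gene the peaks were also unevenly spread. The window made of the gene and the 2000 bp before it held 42 peaks, and adjoining windows of the same size held 11 on the upstream side and 12 on the downstream side. Of 12319 windows of this size tiled along chromosomes 1 to 22 and X and clear of *MITF*, 10 held at least 42 peaks, with a median of 2 over the whole tiling. The tiled windows were set at fixed steps, whereas the *MITF* window was fitted to the gene, which favours *MITF* in this comparison. These 10 lay on chromosomes 5, 6, 11, 12 and 20. On chromosome 3 the highest of 842 such windows held 40, and none reached the cover of the *MITF* window.

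**Figure D5:**
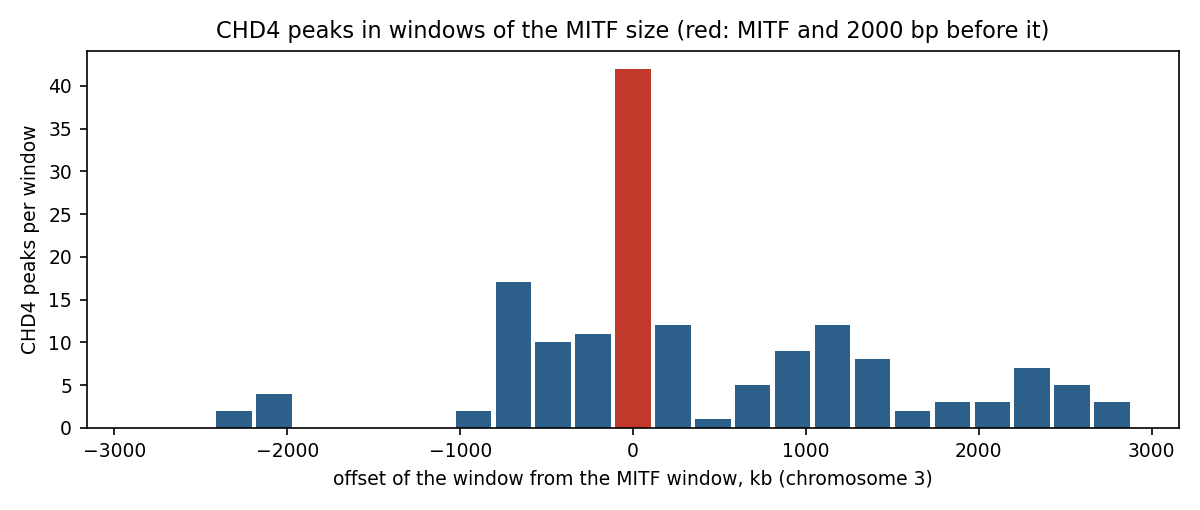
Bars give the number of CHD4 peaks in consecutive windows of 230881 bp on chromosome 3, placed by their offset in kb from the window of *MITF*, which is drawn in red. The red bar stands at 42, and no other window in this stretch exceeds 17.

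The neighbouring genes had sparser peaks. *FRMD4B*, the nearest protein-coding gene upstream, 196872 bp away, had 18 peaks over 373802 bp and a cover of 7.14%. *MDFIC2*, the nearest downstream, had 1 peak and a cover of 0.605%. The long non-coding RNA gene *SAMMSON*, which starts 31213 bp after *MITF* and is known as a melanoma-lineage transcript, was added after its values were seen, and had 11 peaks over 518515 bp and a cover of 2.07%. Between *MITF* and *SAMMSON* lay 3 peaks wholly outside both genes, the strongest of which, from 70036758 to 70037439, was enriched 4.18-fold, with a −log10 q of 5.07. That is above every peak within *MITF*.

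The other members of the MiT/TFE family, which share the DNA-binding domain of MITF and can pair with it, differed from it in their peaks. *TFEC*, whose 224749 bp nearly equal *MITF* in length, had 2 peaks and a cover of 0.909%, with a highest fold enrichment of 2.98. *TFEB*, a regulator of lysosome genes, had 5 peaks over 52282 bp, a cover of 13.3% and a highest fold enrichment of 4.05. *TFE3* had 1 peak over 14700 bp, a cover of 3.67% and a fold enrichment of 2.96. The genes of similar length with fewer peaks made up 99.9% for *MITF*, 90.6% for *TFEB*, 45.9% for *TFE3* and 30.2% for *TFEC*, so the 4 genes spread over most of the range.

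The genes most like *MITF* in the number of peaks and in their median and highest fold enrichment, within 25% of its length, were *IGF2BP2*, *JARID2* and *NSMCE2*. Their summed differences from *MITF*, in standard deviations over the genes of this length with a peak, were 1.30, 1.46 and 1.53. *IGF2BP2*, an RNA-binding protein gene also on chromosome 3, had 36 peaks and a cover of 18.0%. *NSMCE2*, which encodes a SUMO ligase of the SMC5/6 complex, had 40 peaks and a cover of 13.8%. In all of them the cover was lower than in *MITF*.

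Genes that act on *MITF* or are known targets of MITF were set beside the background in the same way. Of 12 regulators of *MITF* transcription, 10 had a peak, or 83.3%, with a median of 9.06 peaks per 100 kb beside 1.77 over all protein-coding genes and 18.2 in *MITF*. *ZEB2*, a zinc finger factor of the neural crest, had the most of this list, 23, and *POU3F2* and *SOX9* had none. *SOX10*, the lineage factor that acts on the M promoter, had 6 peaks over 16737 bp and a cover of 57.2%. *PAX3* had 17 over 99112 bp, and the strongest of them had a fold enrichment of 5.19, above any in *MITF*. Of 20 genes known as targets, 19 had a peak, or 95%, with a median of 6.36 per 100 kb. *MET*, a receptor tyrosine kinase gene, had the most, 16, and *TBX2* had none. *CDK2* and *PMEL*, which overlap on chromosome 12, share their only peak, which counts for each of them. The shares of both lists are read against 58.5% of all protein-coding genes, without a test. The listed genes are longer, with a median of 45915 bp for regulators and 47809.5 bp for targets, beside 27256.5 bp over all protein-coding genes. No share or density for genes of like length is given for the lists. Their differences from 58.5% and from 1.77 peaks per 100 kb therefore cannot be told apart from length. The median of 1.77 also includes the 8342 genes without a peak.

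Short motif words were searched on both strands in the GRCh37 sequence of each peak. TGAGTCA read on the other strand is TGACTCA, and both were counted as the AP-1 word. The E-boxes CACGTG and CATGTG were counted apart. The AP-1 word was held by 14 of the 42 peaks, or 33.3%, beside 17.1% of all peaks and 25.4% of peaks within 25% of each member's length. For the SOX word AACAAAG the values were 35.7%, 21.9% and 32.2%, and for the LEF/TCF word they were 26.2%, 14.5% and 21.8%. The E-box CATGTG, which MITF itself can bind, was held by 22 peaks, or 52.4%, beside 43.5% of all peaks and 57.8% of peaks of like length. For CACGTG, in 6 peaks, the values in the same order were 14.3%, 12.6% and 18.4%, and for the TEAD word they were 54.8%, 36.6% and 50.5%. The cyclic AMP response element and the CTCF consensus were each found in 1 peak, or 2.38%. Over all peaks and over peaks of like length the shares were 0.898% and 1.36% for the first and 1.52% and 1.81% for the other. Any of these words was held by 36 peaks, or 85.7% (72.2% to 93.3%), beside 72.3% of all peaks, without a share for like length. The shares of peaks of like length are closer to those of *MITF* than the shares of all peaks are for every word but CACGTG, and no test was made. Within 250 bp of the centre, the share at *MITF* was below that of all peaks for SOX (11.9% and 14.7%) and TEAD (23.8% and 26.6%). It was also lower for CACGTG (0% and 7.97%) and the cyclic AMP response element (0% and 0.582%). It was higher for AP-1 (16.7% and 10.8%), CATGTG (40.5% and 33.7%), LEF/TCF (11.9% and 8.87%) and CTCF (2.38% and 1.49%). The region around the centre runs past the ends of the shortest peaks, so words outside a peak can count. Some of the 17 *MITF* peaks counted for CATGTG hold the word there only outside the peak. The higher share for CATGTG is therefore not one of peak sequence alone.

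Some matches in the strongest intronic peaks are shown with 61 bases of GRCh37 sequence, so that the words can be seen in place, and the only CTCF match of the gene is added. The AP-1 match in the strongest intronic peak, its only match to any word searched, lies 2 bp from its centre. The 2535-bp and 5083-bp peaks hold further matches that are not shown. The AP-1 match shown for the 2535-bp peak lies at −89 bp from its centre and its other AP-1 match at 220 bp, and the CACGTG match of the 5083-bp peak lies at −1028 bp. The CTCF match lies in a 769-bp peak of intron 2 with a fold enrichment of 2.70 and inside a short miRNA gene that the annotation places there. Capitals mark only the word named on each line. The stretch of the 2535-bp peak also holds the LEF/TCF word, and that of the 5083-bp peak the CATGTG and TEAD words, all left in lower case.

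AP-1 word in the 367-bp peak of intron 2, chr3:69962684-69962744: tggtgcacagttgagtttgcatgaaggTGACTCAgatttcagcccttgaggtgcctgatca
AP-1 word in the 2535-bp peak of intron 1, chr3:69870210-69870270: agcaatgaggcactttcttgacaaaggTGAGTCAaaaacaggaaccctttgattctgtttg
E-box CACGTG in the 5083-bp peak of intron 2, chr3:69975739-69975799: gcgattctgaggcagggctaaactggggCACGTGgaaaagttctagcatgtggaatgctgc
CTCF consensus in the 769-bp peak of intron 2, chr3:69969302-69969362: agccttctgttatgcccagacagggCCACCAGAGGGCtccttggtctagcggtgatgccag

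The base composition of the *MITF* peaks followed that of the gene. G and C made up a median of 38.0% of their bases, from 30.0% to 53.2%, beside 38.6% of the whole gene and a median of 43.8% in all other peaks. The highest value belonged to the peak over the A promoter. The background level under each peak was estimated from its fold enrichment and p, as the level at which both hold under the usual formula of the peak caller. It had a median of 3.23 reads at *MITF* peaks, from 2.56 to 4.32, beside 3.34 at the 4273 other peaks of chromosome 3 (quartiles 2.88 and 3.87) and 2.88 at all other peaks. The ratio to the rest of chromosome 3 was 0.967. On simulated peaks the median ratio of the estimate to the true level was 1.13. That is an error of a single level and not of a ratio of medians, so it gives no margin for 0.967. The background level describes the input only if the input served as the control of the call, which the sources do not state.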

How the data were processed

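CHD4 ChIP-seq and input libraries from 501Mel cells were each sequenced once, and the authors deposited 1 list of broad peaks. Per the labels and the paper, single reads were mapped to hg19 with Bowtie (labels: 1.0.0) and peaks called with MACS2 (2.1.1.20160309), with reads extended to the length of the shortest peak, 151 bp. The list runs down to a −log10 q of 1.004. The methods name a threshold of 2 on this scale for the call, and 48.5% of the listed peaks reach 2. Because the value of a broad region is its average, one below 2 does not show whether the region passed or failed that threshold. That every listed region passed it is therefore not shown. Whether the input served as control is not given in the sources used here. For each peak the authors deposited a score (10 times −log10 q without decimals, except in 2 rows), the fold enrichment (a ratio), the −log10 p-value and the −log10 q-value. No counts or per-sample columns exist, so precision rests on counting intervals only; library totals were not used here.

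From these, peaks were placed against GRCh37 and GENCODE release 44 lifted to it, counting positions from 1; an overlap of 1 bp counted, and no peak passed a chromosome end. Mitochondrial peaks were not compared. Intervals are Wilson intervals at 95%. The background level solves the Poisson p with a pseudocount of 1; on simulated regions its median ratio to the true level was 1 for 1000 flat and 1.13 for 500 peaked profiles, with 100% and 10.2% of regions within 10% of it. The genes named are *MITF*, its family, its nearest protein-coding neighbours, the 3 most alike genes, and from each of 2 lists the gene with most peaks and those with none; *SOX10*, *PAX3*, *CDK2*, *PMEL*, *ARID5B*, *SEMA5A* and *SAMMSON* were chosen after their values were seen. The members and lists were chosen with earlier results of these data known. Alternatives were stricter thresholds, joined peaks, other flanks, windows, transcripts, rankings and reference peaks. Python 3.11.15, numpy 2.4.6, pandas 2.3.3, scipy 1.17.1 and matplotlib 3.10.9 were used.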

Additional observations from a re-analysis of the deposited data

How the results depend on the processing

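No paired analysis was possible because only a single peak list, from 1 ChIP and 1 input library, exists and nothing was tested. Of 32 alternatives, 20 kept the value within 1.5 times, or a share within its counting interval, and the cause of the other changes was not tested except where a stricter threshold leaves fewer peaks by construction. The counting intervals of the exon share and of the cover treat every base as a separate trial. Bases under 1 peak are not independent, so these intervals are too narrow and the tally does not measure how firm each value is. The 42 peaks of *MITF* fell to 20 at a −log10 q threshold of 2, and to 0 at a threshold of 5 or a 4-fold enrichment, and joining peaks within 1000 bp left 28. The cover of the gene, 27.6%, became 18.1% at the threshold of 2 and 32.5% with joined peaks. The 3 start groups with a peak stayed 3 under all 5 alternatives tried. The strongest peak stood above 90.5% of the list by fold enrichment, 91.7% by −log10 q, 93.7% on chromosome 3 and 80.4% of those past the threshold of 2. The share of genes of similar length with fewer peaks, 99.9%, was 100% within 10% of the length, among chromosome 3 genes within 50% of the length, and by cover, and 99.8% at the threshold of 2. Over genes of at least 100000 bp, an alternative added after seeing the data, 99.9% had a lower cover. The share of peak bases in exons, 4.08%, was 3.68% for the canonical transcript. The background ratio, 0.967, was highest against the peaks of all chromosomes, where it was 1.12. The methods name a threshold of 2 for the call. An average below 2 over a broad region does not show whether the region passed or failed it. Peaks with such averages could not be looked for in a replicate.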
